A study of Mus musculus with 9 samples.

Results

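The comparison set day 7 of pneumosphere culture against the average of day 3 and day 10, and asked which transcripts peaked or dipped on day 7. All 9 libraries of the series entered it: 3 from day 7, 3 from day 3 and 3 from day 10. Pneumospheres are balls of cells that grow in suspension from dissociated embryonic lung. In all 3 groups the lungs came from C57/B6 mouse embryos at E11.5, cells that stuck quickly to plastic were left behind to enrich epithelium, and the rest grew without further treatment under low oxygen in serum-free medium with bFGF, EGF and heparin. Spheres were taken apart and replated on days 3 and 7. Day 3 and day 10 RNA therefore came 3 days after plating or a split, and day 7 RNA 4 days after one. Day 7 thus differs from the average of the other days in time since the last split and in its place in the series, and these cannot be told apart. Whether replicate libraries came from different cultures or litters is not in the labels, so p-values measure only the spread between these samples, which may be technical.

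Library totals were 20716878 to 30466712 counts. An unnamed gene ID took 6.79% of the counts of day 3 replicate 2 and at most 0.515% in any other library. The labelled epithelium was nearly absent from the RNA: Nkx2-1, which specifies lung endoderm, had 0 counts in every library, and Epcam, an epithelial adhesion protein, averaged 0.599 ± 0.207, 0.117 ± 0.100 and 0.113 ± 0.0396 CPM (SD, n = 3) on days 3, 7 and 10. Vim, an intermediate filament of mesenchymal cells, stood at 661 ± 43.4, 723 ± 94.0 and 817 ± 95.8 CPM on the same days. CPM are counts scaled to library size after TMM, a correction for differences in composition between libraries. In these bulk samples, fewer cells of a type and less RNA per cell cannot be told apart.

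Signalling by the TGF-beta family comes up repeatedly below. Its ligands (TGF-betas, activins and bone morphogenetic proteins, or BMPs) are secreted as precursors that proprotein convertases cut, and latent TGF-beta is stored on matrix microfibrils. Receptors pass the signal to SMAD proteins, which switch on targets that include their own inhibitors, such as Smad7 and Skil. In the lung this family is known for its roles in branching, in the mesenchyme and in matrix production. Immediate early genes, a second recurring group, encode transcription factors and phosphatases that cells switch on within minutes of a stimulus.

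Of 14940 genes tested, 1199 (8.03%) differed on day 7: 891 (5.96%) were higher on day 7 than the average of days 3 and 10, and 308 (2.06%) lower (edgeR quasi-likelihood test, Benjamini-Hochberg adjusted p under 0.05). Most were not peaks or troughs. Among the 891, 661 (74.2%) rose from day 3 to day 7 with no called difference between days 7 and 10, and 120 (13.5%) rose over both steps, by more over the first step of 4 days than over the second of 3 days. A further 34 (3.82%) were called only against day 10. The remaining 76 were peaks: higher in the contrast and also called higher than day 3 and than day 10, each taken alone. Peaks were 0.509% of the genes tested. Of the 308 lower genes, 254 (82.5%) fell between days 3 and 7 only, 26 (8.44%) fell over both steps, 5 (1.62%) were called only against day 10, and 23 were troughs (0.154% of the genes tested). The contrast weighs days 3 and 10 equally although day 7 lies nearer day 10. With weights by linear interpolation to day 7 it called 506 genes higher and 123 lower, among them all 76 peaks and 22 of the 23 troughs, but 53 of the 120 genes that rose over both steps and 348 of the 661 that rose early. DESeq2 called 1147 higher and 530 lower. The counts also moved with single libraries: without day 7 replicate 1 the contrast called 438 genes higher and 114 lower, without day 7 replicate 2 it called 518 and 114, and without day 3 replicate 1 it called 527 and 133. It called 573 and 154 without day 3 replicate 2, and 1296 and 521 without day 10 replicate 3. Without day 3 replicate 3 or day 7 replicate 3 the lower genes were 177 and 158.

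**Figure D1:**
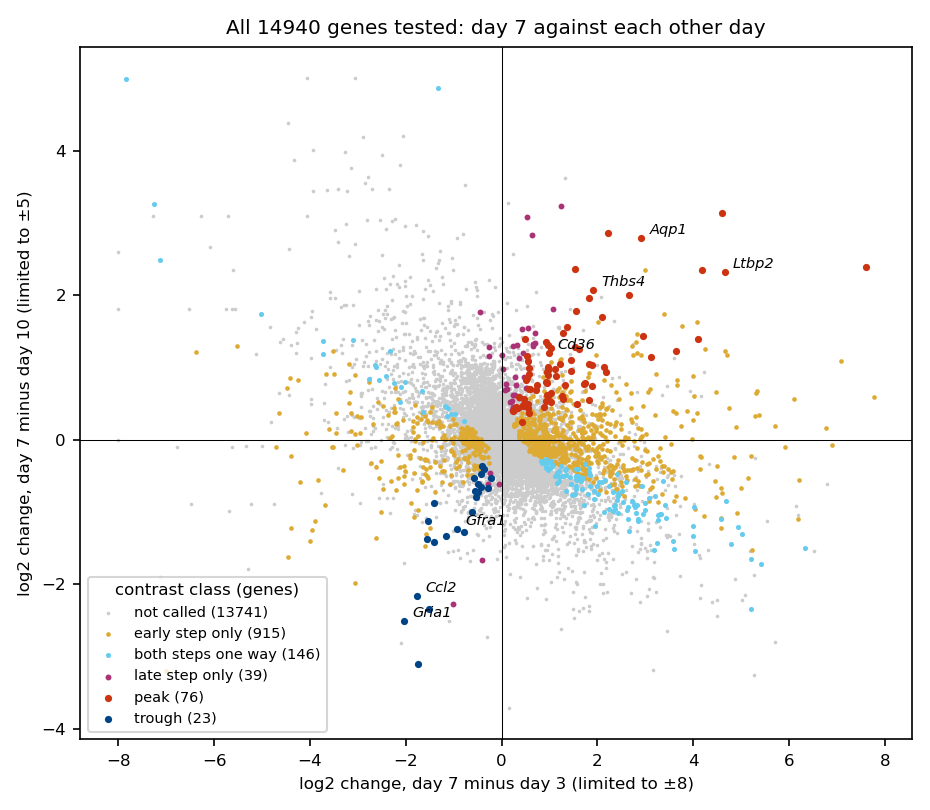
Each point is 1 of the 14940 genes tested, placed by its log2 change from day 3 to day 7 (horizontal axis, limited to ±8) and from day 10 to day 7 (vertical axis, limited to ±5), and coloured by how it was called. The 76 peaks lie in the upper right and the 23 troughs in the lower left, while the early-step genes (661 higher and 254 lower) spread along the horizontal axis.

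The 76 peaks were 75 protein-coding genes and 1 long noncoding RNA, Gm5914. In 75 of them all 3 day 7 libraries lay above the other 6. The exception was Ccdc88a, whose lowest day 7 library (153 CPM) fell below its highest day 3 library (155 CPM). Over all genes tested, the day 7 libraries lay above the other 6 in 251 (1.68%). The peaks were chosen as higher on day 7 in these same libraries, which favours such a gap. Their median log2 contrast was 1.02, beside 0.007845 over all genes tested, a value that the choice of peaks fixes in sign. The day 7 level was at least 2-fold above both other days in 26 peaks and at least 1.5-fold above both in 50. Day 10 did not differ detectably from day 3 in 47 of the 76 peaks, stayed above it in 25 and fell below it in 4. The 23 troughs, all protein-coding, had a median contrast of -0.81, with 8 at least 2-fold and 12 at least 1.5-fold below both other days. All 3 day 7 libraries lay below the other 6 in each trough, and in 185 (1.24%) of all genes tested. The choice of troughs favours this in the same way.

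A single library weighed heavily on the peaks and troughs. Day 7 replicate 2 was the highest of the 3 day 7 libraries in 58 of 76 peaks, against 8 for replicate 1 and 10 for replicate 3, and the lowest in 18 of 23 troughs. Its median over the peaks was 1.113 on the log2 scale, against 0.9352 and 0.9157 in the other two. Without it 23 genes were peaks, 21 of them among the 76, and 5 were troughs, all among the 23. The contrast kept its sign in all 76 peaks and all 23 troughs without it, with medians of 0.957 and -0.753. The choice of these genes from the same libraries largely fixed that sign. Leaving out a day 3 library or day 7 replicate 1 gave 45 to 49 peaks and 8 to 13 troughs, and leaving out day 7 replicate 3 gave 68 and 15. Without day 10 replicate 3 there were 118 and 40. On raw counts day 3 replicate 2 and day 10 replicate 3 differed most from their fellows (chi-square per degree of freedom of 109 and 127, and of 47.9 and 60.3, beside 8.05 and 28.8 for the remaining pairs of those days). These values take in the unnamed ID with 6.79% of the counts of day 3 replicate 2, and its part in them was not separated. Without both libraries 74 genes were peaks and 20 troughs, of which 42 and 11 were among the 76 and the 23. In all 9 fits that left out 1 library, 19 genes remained peaks: Ltbp2, Aqp1, Pcsk6, Csmd3, Tbc1d9, Prg4, Nkd2, Ssc5d, Rasl11b, Cd36, Pcsk5, Cplx2, Gas1, Dusp1, Emcn, Tgfb3, Tenm3, Plcl1 and E2f1. Gfra1, Itga9 and Gria1 remained troughs.

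**Figure D2:**
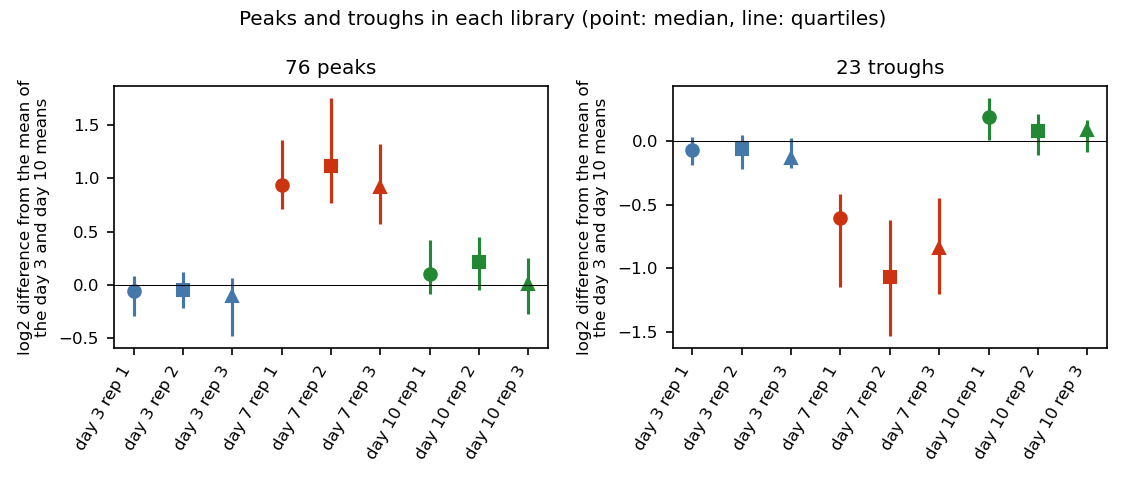
For each library, the point is the median and the line the quartiles, over 76 peaks (left) and 23 troughs (right), of the log2 difference from the average of the day 3 and day 10 means. Day 7 libraries stand apart because the genes were chosen so, and among them replicate 2 stands farthest out in both panels (1.113 and -1.07).

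The largest peak among genes reaching 10 CPM was Ltbp2 (Entrez 16997, mm10 chr12:84783212-84876558), a microfibril protein of the latent TGF-beta binding protein family. Whether it takes part in TGF-beta signalling here was not tested. Ltbp2 read 0.688, 0.828 and 0.882 CPM in the day 3 libraries, 20.1, 24.9 and 15.6 on day 7, and 5.26, 3.92 and 3.04 on day 10. The 3 groups did not overlap, and day 10 stayed above day 3. Its contrast was 3.49 on the log2 scale (SE 0.19, edgeR adjusted p = 3.03e-05), 4.65 against day 3 and 2.32 against day 10. Pcsk6 (Entrez 18553, chr7:65862136-66050386), a proprotein convertase that cuts precursors of TGF-beta family ligands, behaved alike. It stood at 5.83, 7.22 and 6.39 CPM on day 3, 49.9, 53.5 and 46.5 on day 7, and 20.3, 20.3 and 14.8 on day 10, and its contrast was 2.19 (SE 0.11, edgeR adjusted p = 1.71e-05). The related convertase Pcsk5 peaked too, at 42.0 ± 6.16, 105 ± 17.7 and 62.0 ± 5.85 CPM on days 3, 7 and 10 (contrast 1.04, adjusted p = 0.000892, edgeR).

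Promoter windows are shown for 4 peaks: Ltbp2 and Pcsk6, described first, and the immediate early genes Nr4a3 and Dusp1. Each runs 5′ to 3′ on the gene's strand, from 250 bases before to 50 bases after the transcription start in RefSeq GRCm38.p6, the assembly of mm10. For Pcsk6 and Dusp1 this start is the end of the gene model given here, but for Ltbp2 it lies 67 bases and for Nr4a3 227 bases inside it, so those windows do not cover the outermost start. Capitals mark every match to 4 motifs searched on both strands: GTCTAGAC, GGCGCC, TGACGTCA and TGANTCA, where N is any base. GTCTAGAC and GGCGCC are bound by SMAD proteins, and TGACGTCA is the cAMP response element. TGANTCA is a loose form of the AP-1 site bound by Fos and Jun proteins, so its matches may include other sequences.
Ltbp2, chr12:84876442-84876741, minus strand: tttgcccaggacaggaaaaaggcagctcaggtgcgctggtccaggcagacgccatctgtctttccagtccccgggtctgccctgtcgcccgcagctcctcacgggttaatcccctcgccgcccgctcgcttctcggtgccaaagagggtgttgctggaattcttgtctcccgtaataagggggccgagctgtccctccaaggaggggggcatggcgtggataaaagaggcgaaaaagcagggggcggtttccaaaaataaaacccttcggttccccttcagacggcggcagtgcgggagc
Pcsk6, chr7:65861886-65862185, plus strand: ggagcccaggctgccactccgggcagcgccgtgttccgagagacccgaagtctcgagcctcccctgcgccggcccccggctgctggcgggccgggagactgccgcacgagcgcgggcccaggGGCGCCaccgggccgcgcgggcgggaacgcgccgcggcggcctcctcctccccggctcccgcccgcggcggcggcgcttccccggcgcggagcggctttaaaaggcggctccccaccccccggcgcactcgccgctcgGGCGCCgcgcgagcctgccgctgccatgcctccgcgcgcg
Nr4a3, chr4:48045055-48045354, plus strand: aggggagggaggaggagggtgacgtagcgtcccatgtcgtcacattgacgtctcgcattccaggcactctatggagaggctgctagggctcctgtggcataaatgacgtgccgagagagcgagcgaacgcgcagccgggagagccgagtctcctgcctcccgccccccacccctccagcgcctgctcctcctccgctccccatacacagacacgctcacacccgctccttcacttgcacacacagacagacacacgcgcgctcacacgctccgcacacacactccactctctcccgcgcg
Dusp1, chr17:26508423-26508722, minus strand: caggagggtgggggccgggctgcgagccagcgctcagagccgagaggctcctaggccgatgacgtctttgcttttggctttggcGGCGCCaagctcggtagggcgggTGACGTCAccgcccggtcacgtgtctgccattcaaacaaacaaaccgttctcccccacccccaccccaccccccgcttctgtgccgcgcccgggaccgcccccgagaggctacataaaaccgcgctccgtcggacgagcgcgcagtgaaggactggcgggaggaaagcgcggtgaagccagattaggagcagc
Neither the Ltbp2 nor the Nr4a3 window held a match, which says only that these letters are not there. The Pcsk6 window held GGCGCC starting at -128 and 11 relative to the start site, and the Dusp1 window held GGCGCC at -166 and TGACGTCA at -143. Of the 76 peaks, 60 had windows in the RefSeq table, 79 windows in all. GGCGCC was in 25.3% of them, beside 20.9% of windows of all genes tested and 11.9% of all windows. TGANTCA was in 11.4%, beside 5.03% and 7.81%, with 9 peak windows behind that share. TGACGTCA was in 3.8%, beside 2.96% and 1.79%, and GTCTAGAC in none of the 79, beside 0.251% and 0.213%. The troughs had 22 windows, of 15 genes. In these TGANTCA was in 4 (18.2%), a higher share than in the peaks, GGCGCC in 4 (18.2%), and TGACGTCA and GTCTAGAC in none. A match describes the sequence and does not show that a factor binds there.

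Aqp1 (Entrez 11826, chr6:55336299-55348555), a water channel, read 4.89, 6.31 and 6.08 CPM on day 3, 28.8, 67.1 and 34.7 on day 7 and 7.44, 7.53 and 3.99 on day 10. Day 7 replicate 2 was the highest by a wide margin, and Aqp1 stayed a peak without it. Its contrast was 2.85 (SE 0.27, edgeR adjusted p = 0.000495), and days 3 and 10 did not differ detectably (adjusted p = 0.787). Csmd3 (Entrez 239420, chr15:47580638-48792558), a large transmembrane protein with CUB and sushi domains, rose from 6.11 ± 0.624 to 21.5 ± 4.64 CPM and came back to 10.4 ± 0.273 (contrast 1.43, edgeR adjusted p = 0.000306).

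Lhx2 (Entrez 16870, chr2:38339271-38369737), a LIM homeobox factor, stood at 3.92, 3.63 and 3.13 CPM on day 3, 30.3, 39.3 and 23.5 on day 7, and 16.7, 18.1 and 7.59 on day 10 (contrast 2.13, SE 0.25, edgeR adjusted p = 0.0014). Its fall after day 7 only just passed (adjusted p = 0.0463), and it was a peak in 10 of 18 alternative fits. Nr4a3 (Entrez 18124, chr4:48045078-48086447), an immediate early nuclear receptor, read 2.47, 3.35 and 2.51 CPM, then 13.6, 14.2 and 9.83, then 6.60, 6.80 and 6.25 (contrast 1.55, SE 0.15, edgeR adjusted p = 0.000368). E2f1, a factor that drives entry into S phase, peaked by a small and even margin, at 57.9 ± 2.83, 79.4 ± 6.46 and 57.2 ± 2.39 CPM (contrast 0.46, adjusted p = 0.00283, edgeR).

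Thbs4 (Entrez 21828, chr13:92751586-92794818), a thrombospondin of tendon and muscle, stood at 114, 99.2 and 85.4 CPM on day 3, 251, 531 and 339 on day 7, and 84.4, 134 and 48.5 on day 10 (contrast 1.99, SE 0.29, edgeR adjusted p = 0.00405). Cilp2 (Entrez 68709, chr8:69880366-69887392), a cartilage matrix protein, averaged 2.76 ± 0.465, 12.1 ± 3.46 and 6.02 ± 1.90 CPM (contrast 1.57, edgeR adjusted p = 0.00318). Its lowest day 7 library (8.20) barely cleared its highest day 10 library (8.05). Prg4, the lubricin of joint surfaces, was scarce but clear, at 0.364, 0.316 and 0.132 CPM, then 4.90, 5.88 and 4.41, then 0.992, 1.24 and 0.741 (contrast 3.27, edgeR adjusted p = 0.000119).

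Cttnbp2, which binds the actin regulator cortactin, averaged 20.5 ± 5.78 CPM on day 7 against 7.98 ± 0.469 on day 3 and 7.03 ± 3.05 on day 10 (contrast 1.46). Tbc1d9, a protein with a Rab-regulating domain, rose from 18.1 ± 2.39 to 43.9 ± 16 CPM and fell back to 15.7 ± 4.66 (contrast 1.38). Ptprb, a receptor phosphatase of endothelium, stood at 10.1 ± 0.758 CPM on day 7 (contrast 1.32) and Tmem26, a transmembrane protein, at 24.8 ± 10.7 (contrast 1.28). Ptprb and Tmem26 were the least settled of the 12 largest, as peaks in 9 and 8 of 18 alternative fits, with Cilp2 a peak in 10, and Cttnbp2, Thbs4 and Nr4a3 were lost only without day 7 replicate 2. Cplx2, a regulator of vesicle fusion, was a peak in all 18 (84.9 ± 4.58, 186 ± 23.2 and 100 ± 13.5 CPM on days 3, 7 and 10), and so was Tenm3, a teneurin adhesion protein (154 ± 8.37, 285 ± 19.7 and 208 ± 10.0 CPM). Piezo1, a channel opened by membrane stretch, went from 96.3 ± 10.8 to 231 ± 40.03 and back to 152 ± 15.4 CPM, and Odc1, the first enzyme of polyamine synthesis, from 71.2 ± 4.17 to 174 ± 21.5 and 117 ± 11.9 CPM. Without day 7 replicate 2 neither was called a peak. In 20 peaks the day 7 mean was under 10 CPM, including Rhbdl2, a membrane protease with 0 counts on day 3 and 0.855, 1.19 and 0.859 CPM on day 7.

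**Figure D3:**
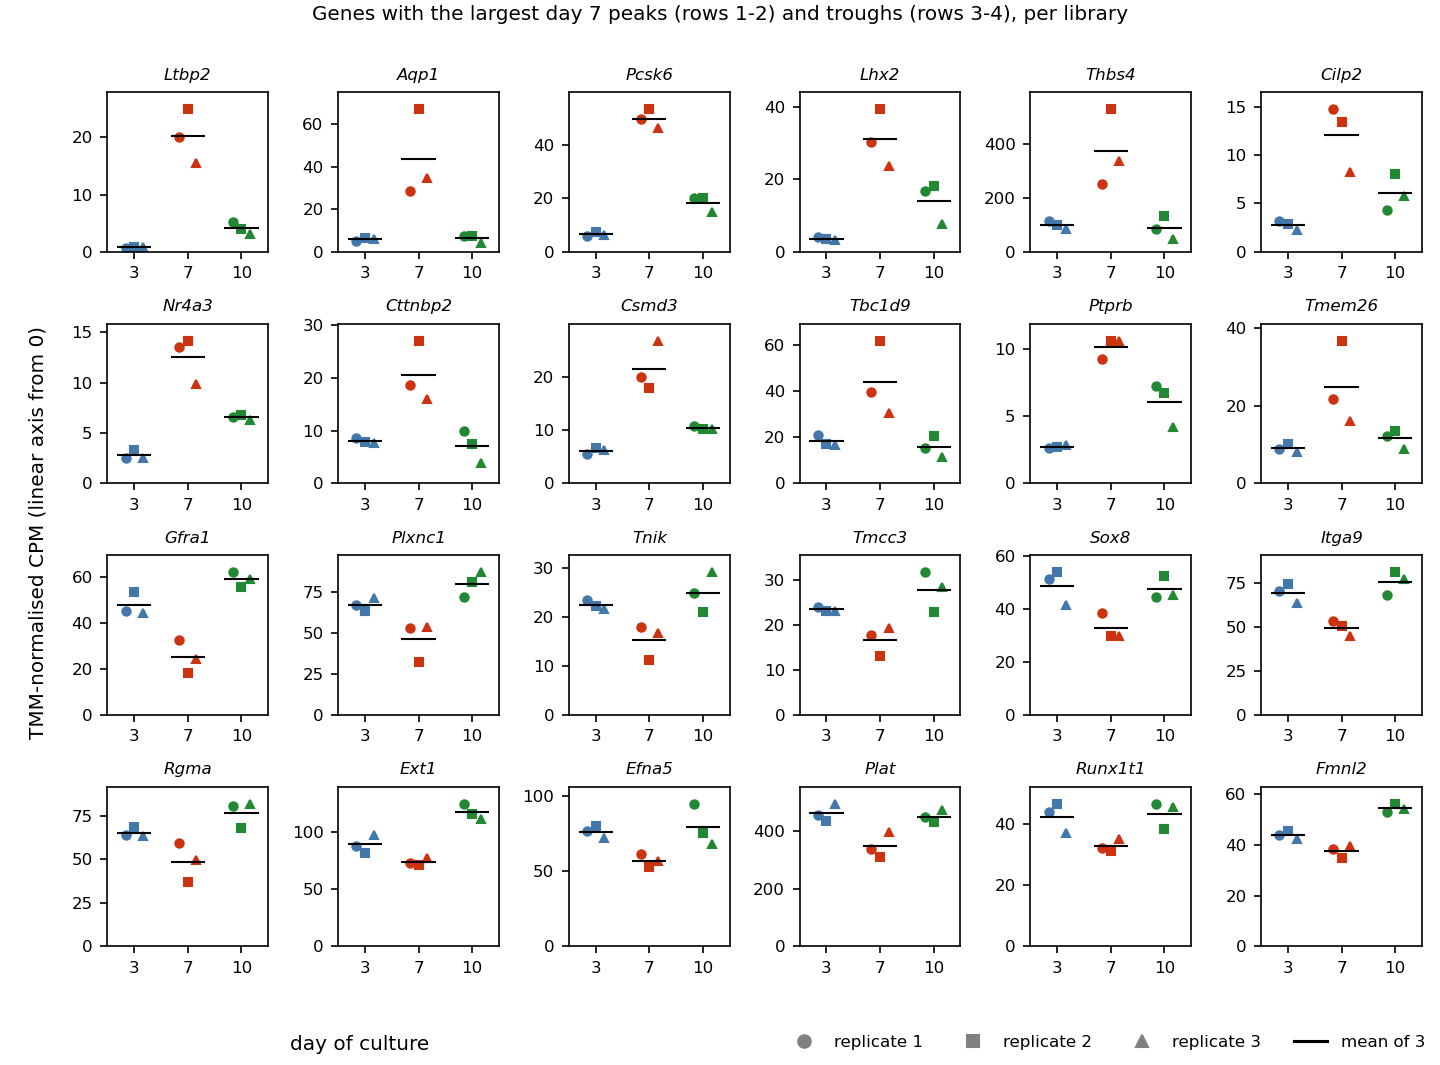
TMM-normalised CPM (vertical axes, linear from 0) by day of culture for the 12 largest peaks (upper rows) and the 12 largest troughs (lower rows) among genes at 10 CPM or more. Each point is 1 library, its shape gives the replicate number, and the bar is the mean of 3. Genes were taken only where the day 7 libraries did not overlap the other 6. The day 7 points therefore lie beyond the others in every panel. In many peaks replicate 2 is the highest day 7 point.

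Troughs were shallower. Gfra1 (Entrez 14585, chr19:58235581-58455946), the co-receptor for the growth factor GDNF, read 45.2, 53.6 and 44.5 CPM on day 3, 32.4, 18.3 and 24.4 on day 7 and 62.0, 55.8 and 59.1 on day 10 (contrast -1.08, SE 0.16, edgeR adjusted p = 0.00355). Itga9 (chr9:118606709-118901003), an integrin subunit, fell less but evenly, at 69.2 ± 5.43, 49.3 ± 4.33 and 75.3 ± 6.68 CPM (contrast -0.55, edgeR adjusted p = 0.00412). Both were troughs in every alternative fit, as was Gria1, a glutamate receptor subunit at 1.60 ± 0.450, 0.393 ± 0.0845 and 2.23 ± 0.462 CPM.

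The other large troughs were less settled. Plxnc1, a semaphorin receptor, averaged 67.2 ± 3.90, 46.2 ± 12.3 and 79.9 ± 7.57 CPM on days 3, 7 and 10 (contrast -0.66). Efna5, an ephrin ligand, averaged 76.5 ± 4.004, 57.0 ± 4.27 and 79.5 ± 13.7 CPM (contrast -0.45). Rgma, a repulsive guidance molecule that is also a BMP co-receptor, averaged 65.3 ± 2.90, 48.6 ± 11.2 and 76.7 ± 7.70 CPM (contrast -0.54). Ext1, which polymerises heparan sulfate, went from 89.5 ± 7.97 to 73.9 ± 3.37 and then up to 118 ± 6.58 CPM, so that day 10 also exceeded day 3 (adjusted p = 0.00201, edgeR). Regulators among the 12 largest were Sox8, a SoxE transcription factor (contrast -0.56), Tnik, a kinase of Wnt signalling (-0.63), and Runx1t1, a transcriptional corepressor (-0.39). The others were Tmcc3, a membrane protein of the endoplasmic reticulum (-0.61), Plat, the tissue plasminogen activator (460 ± 29.5, 347 ± 43.2 and 449 ± 20.2 CPM, contrast -0.39), and Fmnl2, an actin-nucleating formin (-0.37). These 10 were troughs in between 7 (Runx1t1) and 14 (Ext1) of the 18 alternative fits. Without day 7 replicate 2, Plxnc1 was still a trough, Ext1 and Fmnl2 were called only against day 10, and Tnik, Tmcc3, Sox8, Rgma, Efna5, Plat and Runx1t1 were not called in the contrast.

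**Figure D4:**
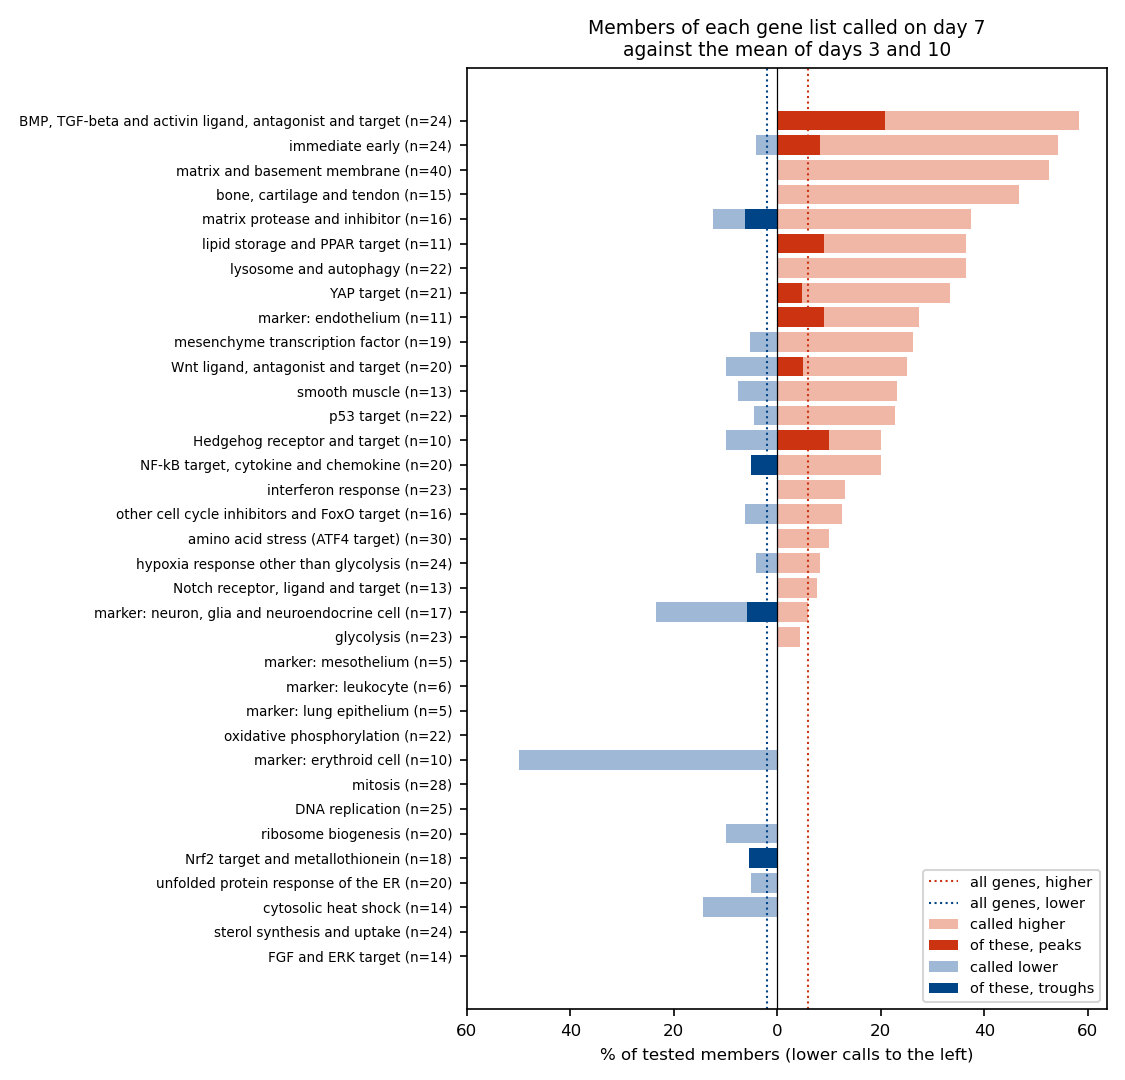
Share of the tested members of each of 35 gene lists called higher (right) or lower (left) on day 7 against the average of days 3 and 10, with peaks and troughs in the darker colour and the shares over all genes tested as dotted lines (5.96% and 2.06%). Of the TGF-beta family list 58.3% is called higher and 20.8% are peaks, while 52.5% of the matrix list is called higher with no peak.

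Of 24 tested genes on a list of BMP, TGF-beta and activin ligands, antagonists and targets, 14 (58.3%) were higher on day 7, beside 5.96% of all genes, and none was lower (at an unadjusted p under 0.05, 20 were higher and none lower; by DESeq2, 17 and none). Of the 14, 5 were peaks and 9 were called against day 3 only. The list's median contrast was 0.713, beside 0.007845 over all genes. Members above day 3 numbered 20 and those above day 10 numbered 7, beside 22.8% and 4.1% of all genes tested. The list's median log2 difference of day 7 was 0.92 from day 3 and 0.41 from day 10. Among ligands, Tgfb3 (Entrez 21809, chr12:86056743-86079041) was a peak, at 69.7, 65.2 and 70.8 CPM on day 3, 123, 111 and 102 on day 7, and 55.6, 78.1 and 75.2 on day 10 (contrast 0.69, SE 0.10, edgeR adjusted p = 0.00349). Days 3 and 10 overlapped, and all day 7 libraries were above both. Tgfb1 rose early and did not differ detectably from day 10 afterwards (31.4 ± 2.87, 75.8 ± 6.09 and 60.9 ± 7.11 CPM, contrast 0.79, adjusted p = 0.000872 in edgeR). Bmp4 had the outline of a peak, at 15.6, 17.0 and 11.0 CPM, then 25.1, 35.6 and 21.2, then 9.13, 19.9 and 13.4, but its difference from day 10 missed the threshold (adjusted p = 0.0756, edgeR). Bmp2 (10.6 ± 1.23, 16.6 ± 2.26 and 10.9 ± 3.06 CPM) missed it likewise (adjusted p = 0.0772, edgeR), while the activin subunit Inhba rose and stayed up (4.60 ± 1.21, 12.9 ± 2.62 and 13.6 ± 2.48 CPM).

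Inhibitors were called higher as well. Smad7 read 14.2, 14.4 and 11.4 CPM on day 3, 27.8, 29.8 and 20.8 on day 7 and 16.9, 17.1 and 17.5 on day 10 (contrast 0.79, SE 0.12, edgeR adjusted p = 0.0037). Skil, a corepressor that binds SMADs, read 54.4, 58.8 and 50.1, then 108, 114 and 90.1, then 61.6, 82.6 and 71.6 CPM (contrast 0.73, SE 0.10, edgeR adjusted p = 0.00259). In both genes the 3 day 7 libraries were the highest, though without day 7 replicate 2 both were called against day 3 only. Smad6, which restrains BMP signals, rose early from 13.3 ± 0.132 to 31.97 ± 6.14 CPM and stood at 26.6 ± 3.89 on day 10. Fst, which traps activin outside the cell, went from 0.406 ± 0.161 to 28.4 ± 13.4 and 19.3 ± 4.22 CPM (contrast 3.33, adjusted p = 0.000454, edgeR).

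Of target genes, Id1 peaked at 70.7 ± 5.68, 97.4 ± 12.5 and 65.97 ± 12.05 CPM (contrast 0.51, edgeR adjusted p = 0.0262), and it was lost from the contrast without day 7 replicate 2. Id2 and Id3, its relatives, had contrasts of 0.70 and 0.48 that were not called (adjusted p = 0.061 and 0.0527, edgeR). Pmepa1 and Msx1 were called higher as early-step genes, with Msx1, a homeobox factor, going from 1.1202 ± 0.228 to 11.9 ± 5.397 and 15.2 ± 5.48 CPM. Members of the list called higher numbered 8 with weights by linear interpolation, 7 without day 7 replicate 1, 8 without day 3 replicate 1 or day 7 replicate 2 and 9 without day 3 replicate 3, and 10 to 15 without any other single library. Peaks numbered 2 without day 3 replicate 1, day 7 replicate 1 or day 7 replicate 2, and 4 to 7 otherwise. Bmp4, Bmp2 and Pmepa1 were sorted alike in 3, 6 and 7 of the 18 alternative fits. Of the 5 peaks, Ltbp2 and Tgfb3 were peaks in every alternative.

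**Figure D5:**
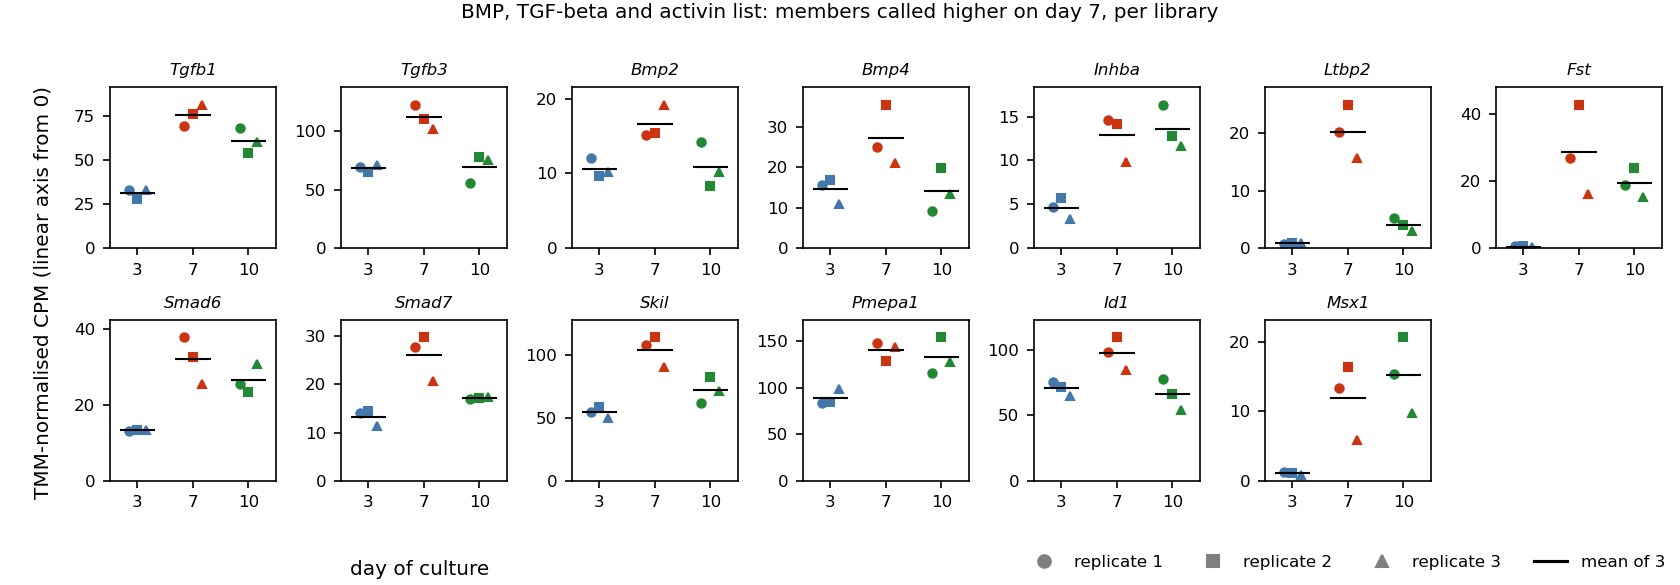
TMM-normalised CPM (vertical axes, linear from 0) by day of culture for 13 of the 14 members of the BMP, TGF-beta and activin list called higher on day 7, 1 point per library and a bar at each mean of 3. Tgfb3, Ltbp2, Smad7, Skil and Id1 fall back by day 10, whereas Inhba and Msx1 do not.

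Immediate early genes were higher in 13 of 24 cases (54.2%) and lower in 1 (4.17%), Myc, beside 5.96% and 2.06% of all genes tested. Their median contrast was 0.766. Of the 13, 11 were called against day 3 only. In the list 19 members were above day 3 and 2 above day 10, beside 22.8% and 4.1% of all genes tested. The list's median log2 difference of day 7 from day 10 was 0.29. Nr4a3 and Dusp1 were the 2 peaks. Dusp1 (Entrez 19252, chr17:26505591-26508472), a phosphatase that switches off MAP kinases, read 23.1, 20.3 and 23.0 CPM on day 3, 38.5, 28.1 and 31.3 on day 7, and 19.3, 15.1 and 15 on day 10 (contrast 0.77, SE 0.12, edgeR adjusted p = 0.0037). Day 10 was the lowest of the 3 days. Junb read 22.3, 18.8 and 23.4 CPM, then 113, 81.9 and 88.4, then 71.1, 57.7 and 31.7 (contrast 1.48, edgeR adjusted p = 0.00343), with day 7 above day 10 in each library but not past the threshold (adjusted p = 0.0744). Fos varied most on day 10, at 232, 110 and 20.4 CPM, against 411, 212 and 281 on day 7, and its contrast of 2.03 was not called (adjusted p = 0.0651, edgeR). Egr1 and Fosb were not called either (adjusted p = 0.12 and 0.121). Myc went the other way, from 59.6 ± 2.29 to 24.5 ± 2.92 and 21.01 ± 2.17 CPM. The TGF-beta family and immediate early lists were chosen with earlier results of these data known, so their shares are not independent evidence.

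Single members of other signalling lists peaked. Over all genes tested 5.96% were higher, 2.06% lower and 0.509% peaks. Nkd2, a feedback inhibitor of Wnt, went from 7.60 ± 0.788 to 25.5 ± 2.63 and back to 14.8 ± 1.42 CPM (contrast 1.27, adjusted p = 0.000155, edgeR), and it was 1 of 5 higher and 2 lower among 20 Wnt genes. Gas1, a Hedgehog co-receptor, read 281, 271 and 263 CPM on day 3, 549, 645 and 470 on day 7 and 339, 383 and 339 on day 10 (contrast 0.84, SE 0.09, edgeR adjusted p = 0.000835). Of 10 Hedgehog genes 2 were higher and 1 lower. Among 21 YAP targets 7 (33.3%) were higher, with Cavin2, a caveolar coat protein, the only peak (92.6 ± 13.1, 181 ± 38.1 and 92.3 ± 34.8 CPM, against day 10 adjusted p = 0.0495, edgeR, a peak in 6 of 18 alternative fits). Of 13 Notch genes 1 (7.69%, near the share of all genes) was higher, the glycosyltransferase gene Lfng (19.3 ± 1.56, 71.6 ± 4.22 and 70.1 ± 7.23 CPM). None of 14 FGF and ERK targets was called by edgeR or by DESeq2, although 3 had an unadjusted p under 0.05, all higher.

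Cd36 led the lipid list, in which 4 of 11 genes (36.4%) were higher, beside 5.96% of all genes tested. This fatty acid transporter read 193, 191 and 183 CPM on day 3, 372, 403 and 358 on day 7 and 180, 159 and 153 on day 10 (Entrez 12491, chr5:17781690-17888959, contrast 1.10, SE 0.07, edgeR adjusted p = 5.65e-05). The 3 day 7 libraries lay close together and far above the rest. Fabp4, Pparg and Angptl4 rose early, and their day 10 libraries spread widely, as in Fabp4 with 101, 18.3 and 39.6 CPM beside 60.3, 68.2 and 70.4 on day 7. Emcn, a sialomucin of endothelium, peaked too (111 ± 8.36, 185 ± 24.0 and 109 ± 13 CPM, contrast 0.75, edgeR adjusted p = 0.00168). The summed CPM of 12 endothelial markers ran from 311 to 388 on day 3, from 743 to 783 on day 7 and from 468 to 690 on day 10, and the 3 called higher of 11 tested, Emcn, Eng and Kdr, made up most of it. The defining endothelial genes Pecam1 (0.198 to 6.28 CPM per library) and Cdh5 (1.59 to 11.5) were low on every day and were not called (adjusted p = 0.84 and 0.751, edgeR). The part of endothelium in the peaks of Aqp1, Cd36, Emcn and Ptprb, which it also expresses, was not tested.

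Of 40 matrix and basement membrane genes 21 (52.5%) were higher and none lower, beside 5.96% and 2.06% of all genes tested. Of the 21, 9 rose by an early step and 12 over both steps. No member of the list was a peak in edgeR (1 was in DESeq2). None was above day 10 and 16 were below it, beside 4.41% of all genes tested. The peaks Ltbp2, Thbs4 and Cilp2, matrix proteins described above, are not on this list. Aspn, a small leucine-rich proteoglycan, went from 27.9 ± 4.25 to 250 ± 9.53 and 302 ± 30.7 CPM, and the elastic fibre protein Fbln5 from 15.4 ± 2.48 to 86.4 ± 15.9 and 77.7 ± 5.52. Of 15 bone, cartilage and tendon genes 7 (46.7%) were higher, with no peak in edgeR or DESeq2. The peaks Thbs4, Cilp2 and Prg4 are not on that list, so its lack of peaks holds for its members only. Mgp, an inhibitor of mineralisation, went from 35.3 ± 15.6 to 1043 ± 21.3 and 928 ± 148 CPM, and Dmp1, a protein of bone matrix, from 0.579 ± 0.0930 to 21.3 ± 7.22 and 25.04 ± 6.04. Sox9, a regulator of cartilage and of lung tip progenitors, was not called (51.3 ± 4.72, 63.8 ± 6.49 and 85.0 ± 26.5 CPM, contrast -0.05, edgeR adjusted p = 0.909). Matrix proteases and inhibitors had 6 higher and 2 lower of 16, with Plat the only trough. Smooth muscle genes had 3 higher and 1 lower of 13, with Tagln, an actin-binding protein, at 10.8 ± 1.58, 128 ± 19.4 and 173 ± 69.6 CPM, and Synpo2 the lower one. Mesenchymal transcription factors had 5 higher and 1 lower of 19, with Prrx1 (4.40 ± 0.886, 70.0 ± 4.95 and 177 ± 30.4 CPM) and Foxc2 leading.

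Cell division genes showed no peak although E2f1 did. Of 28 mitosis genes none was called in the contrast by edgeR or DESeq2, and none had an unadjusted p under 0.05. Their median change was -0.61 from day 3 to day 7 and 0.91 for day 7 over day 10, so day 7 lay between the others. Aurkb, the mitotic Aurora B kinase, read 91.1, 86.9 and 92.2 CPM, then 59.8, 77.8 and 71.3, then 40.8, 41.7 and 18.2 (contrast 0.34, edgeR adjusted p = 0.414). Prc1 and Cdk1 had the lowest p of the list, at adjusted p = 0.371 and 0.388 in edgeR. Of 25 DNA replication genes none was called by edgeR or DESeq2 and 1 had an unadjusted p under 0.05. In the pairs 10 of them were lower on day 7 than day 3 and 16 higher than day 10, beside 19% and 4.1% of all genes tested. Pold1, a replicative polymerase subunit, averaged 116 ± 1.45, 104 ± 5.41 and 71.6 ± 8.22 CPM, and Cdt1, which loads the replicative helicase, 55.9 ± 1.48, 47.6 ± 6.45 and 28.1 ± 7.36. Ribosome biogenesis had 2 lower of 20, Npm1 and Polr1b. Of 22 p53 targets 5 (22.7%) were higher and 1 (4.55%) lower, with Phlda3 and Cdkn1a leading. Of 16 other cell cycle inhibitors and FoxO targets 2 (12.5%) were higher and 1 (6.25%) lower, with Cdkn2c (contrast 0.89) and Arrdc4 (-0.52) leading. Over all genes tested these shares were 5.96% and 2.06%.

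Of all genes tested, 5.96% were higher and 2.06% lower, and the stress and metabolic lists ran from no call to 8 of 22. NF-kB targets, cytokines and chemokines had 4 higher (20%) and 1 lower of 20, the latter the trough of Ccl2, a monocyte chemokine, at 4.33, 5.60 and 3.44 CPM, then 0.888, 0.741 and 2.30, then 8.38, 6.36 and 2.96 (contrast -1.97, SE 0.44, edgeR adjusted p = 0.0271, a trough in 11 of 18 alternative fits). Of 18 Nrf2 targets and metallothioneins only Mt2 was called, a trough at 2.63 ± 0.442, 1.18 ± 0.313 and 2.98 ± 0.354 CPM (contrast -1.24, adjusted p = 0.00823, edgeR). Hypoxia genes other than glycolysis had 2 higher and 1 lower of 24, with Stc1 lower (-1.34) and Bhlhe40 higher (0.66), and glycolysis 1 higher of 23, Pfkp (0.37). Amino acid stress had 3 higher of 30, with Gdf15 (1.93) and Cebpb (0.72) leading. The unfolded protein response had 1 lower of 20, Derl3 (-1.38), while Herpud1 was not called. Cytosolic heat shock had 2 lower of 14, Hsph1 (-0.36) and Hspe1 (-0.34). Interferon response had 3 higher of 23 (13%), led by B2m (0.42) and Ifi35 (0.68). Lysosome and autophagy had 8 higher of 22 (36.4%), led by Tfeb (0.80), a master regulator of lysosomal genes, and Wipi1 (0.33). None of 24 sterol genes or 22 oxidative phosphorylation genes was called by edgeR or DESeq2, and 1 of each had an unadjusted p under 0.05, both lower. The lowest p belonged to Sc5d among the former (adjusted p = 0.191, edgeR) and to Ndufs1 and Cox5a among the latter (0.203 and 0.271).

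Markers of other cell types fell mostly in steps rather than dipping on day 7. For comparison, 2.06% of all genes tested were lower in the contrast and 5.96% higher. Summed CPM of 12 erythroid markers ran from 1072 to 1272 on day 3, 7.27 to 8.31 on day 7 and 1.49 to 3.11 on day 10, and 5 of 10 tested members were lower in the contrast, led by Alas2 (-2.31) and Hba-x (-1.99), none of them a trough. Neural and neuroendocrine markers summed to 178 to 234, 36.6 to 50.6 and 20.3 to 26.4 CPM, with 4 lower and 1 higher of 17 and Chga, a granule protein, the only trough (1.62 ± 0.529, 0.604 ± 0.0795 and 1.65 ± 0.655 CPM, edgeR adjusted p = 0.0308, a trough in 10 of 18 alternative fits). The 20 epithelial markers summed to 4.33 to 5.86, 2.42 to 3.46 and 2.48 to 2.76 CPM, with 3 genes at 0 in every library. Of the 5 tested, led by Sox2 and Elf3, none was called by edgeR or DESeq2 and 1 had an unadjusted p under 0.05. Leukocyte markers summed to 12.5 to 22.6, 8.32 to 17.0 and 7.76 to 11.1 CPM, and none of 6 tested, led by Fcer1g and Laptm5, was called by either tool or had an unadjusted p under 0.05. Mesothelial markers summed to 71.2 to 92.9, 38.3 to 41.6 and 18.6 to 29.5 CPM, and none of 5 tested, led by Aldh1a2 and Lrrn4, was called by either tool, with 1 at an unadjusted p under 0.05.

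Counting may have used strand or not, so reads of overlapping genes cannot be told apart. Of the 76 peaks 14 overlap another counted gene, and 11 overlap one that was tested. Among the peaks with values above, Prg4 overlaps Tpr, Piezo1 overlaps Ctu2, E2f1 overlaps Necab3 and Tenm3 overlaps Gm19744, and none of these partners was called in the contrast. Ltbp2, Cavin2 and Tenm3 overlap long noncoding RNAs that were too low to be tested. Of the 23 troughs 3 overlap a counted gene: Gfra1 and Rgma a long noncoding RNA each, and Adamts6 a pseudogene, none of them called. Gm5914 lies over Ctcf, which was not called.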

How the data were processed

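Poly(A) RNA of 9 pneumosphere libraries was sequenced from TruSeq libraries, per the labels' protocols. The authors deposited 1 table of whole-number read counts per Entrez gene ID, without normalisation, and per the submitters' processing notes featureCounts and mm10 were used. Not given in the sources used here: the aligner, the annotation, how multi-mapping reads counted, and use of strand. Of 27179 IDs, 25275 were named from RefSeq GRCm38.p6, 18 from GENCODE M21 and 1886 not at all.

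Genes kept by filterByExpr (14940) were TMM-scaled and fitted with edgeR 4.0.16 (R 4.3.3) in 1 robust quasi-likelihood fit of the 9 libraries (biological coefficient of variation 0.146). The contrast was day 7 minus the mean of the day 3 and day 10 log2 levels. Both pairs were tested in the same fit, with Benjamini-Hochberg adjustment over all genes and calls under 0.05. Each standard error (SE) was taken as the size of the log2 change over the root of its F value. A count of 0 allows up to 3 counts, 0.0985 to 0.145 CPM, for counting error only. The procedure was tested on simulated data. No 2 replicates of a day differed by as little as counting noise.

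Named genes are the 12 largest peaks and troughs with at least 10 CPM and no overlap between libraries, Sox9, Nkx2-1, Epcam, Aurkb and Vim, and from each of 35 lists its peaks and troughs or else its 2 lowest p, with a few items not reported here. Others in the text were chosen after their values were seen. Groups, comparison and lists were chosen with earlier results of these data known. Alternatives were 3 other scalings, 2 other filters, DESeq2 1.42.0, the replicate block, weights by linear interpolation, and libraries left out.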

Additional observations from a re-analysis of the deposited data

How the results depend on the processing

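All 76 peaks and 23 troughs kept their direction in every one of the 18 alternatives that fitted them. Their choice from the same libraries largely fixed this, and which genes passed both pairs did not hold. With 1 library left out, genes called higher numbered 438 to 1296, lower 114 to 521, peaks 23 to 118 and troughs 5 to 40, members of the TGF-beta family list called higher 7 to 15 and its peaks 2 to 7. Called higher and called lower in all 9 such fits were 364 and 72 genes. Weighting days 3 and 10 by linear interpolation to day 7 gave 506 higher and 123 lower genes, and 8 of the TGF-beta family list. DESeq2 called 530 lower genes, 52 troughs (22 of them among the 23) and 8 TGF-beta family peaks, beside 114 peaks (72 among the 76). A fold of at least 1.5 in both pairs left 50 peaks and 12 troughs. Without day 3 replicate 2 and day 10 replicate 3, 2 TGF-beta family peaks were left. Replicate numbers were shared across days, and whether they follow 1 culture is not known. They were not taken to pair the samples. Correlations of same-numbered deviations ran from -0.0694 to 0.433, with 7 of 9 positive and 5 over 0.1. Those of differently numbered pairs ran from -0.356 to 0.221, the highest between day 7 replicate 1 and day 10 replicate 3. Pairing by replicate number is thus not excluded. With the replicate block 960 genes were higher, 303 lower, 108 peaks (69 among the 76) and 25 troughs (19 among the 23). Of the gene contrasts recomputed, 3906 kept direction and side of the threshold, 625 lost a call, 7 gained one and 5 changed sign. The 5, none called, were Sox9 (-0.1613 to 0.05891 with 1 library left out, positive only without day 10 replicate 3, and 0.05422 without that library and day 3 replicate 2), Vim (-0.09852 to 0.07751, positive without day 7 replicate 1 and, at 0.02743, without day 10 replicate 1) and Laptm5 (-1.076 to 0.09514, positive only without day 7 replicate 1). Fewer libraries were fitted in each of these. The cause of the other shifts was not tested. Depth limits the scarce genes, since 3 counts amount to 0.0985 to 0.145 CPM.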
